A study of Rattus norvegicus with 2 samples.

Results

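The melanocortin and neuropeptide Y (NPY) feeding genes are described here in the rat hypothalamus before and at puberty. The 9 genes were chosen by name: the peptide precursors Pomc, Cartpt, Agrp and Npy, the melanocortin receptors Mc3r and Mc4r, and the NPY receptors Npy1r, Npy2r and Npy5r. All 9 were listed, each with 1 transcript, among the 22777 genes of the mRNA table. Female Sprague Dawley rats were taken at postnatal day 25 (prepubertal) or at the first estrus on postnatal day 35 (pubertal), with 3 rats per stage according to the methods, and no treatment or mutant genotype was named. The tables hold 1 column per stage, without saying how the rats were pooled or averaged, and each column was read as 1 library. The spread between rats is therefore unknown, and no p-value is given. Hypothalamus tissue was sequenced, not the arcuate nucleus alone, and more cells of a type and more RNA per cell cannot be told apart.

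The arcuate nucleus holds a pair of opposed populations of feeding neurons. One makes pro-opiomelanocortin, which is cut into alpha-MSH, and most often CART as well, and lowers food intake through the receptors MC3R and MC4R. The other makes NPY together with AgRP, the natural antagonist of those receptors, and raises food intake. Both populations respond to leptin and reach GnRH and kisspeptin neurons, and through them energy stores bear on the timing of puberty.

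The sequences just before the start sites of the 4 peptide genes are shown because these genes make the signals of both neuron populations. They are the 150 bases before the annotated start, 5′ to 3′ on the gene's strand, from RefSeq on GRCr8, an assembly other than the one the reads were aligned to. They lie at chr6:32659203-32659352 (plus strand) for Pomc, chr2:32991236-32991385 (minus strand) for Cartpt, chr19:50359498-50359647 (minus strand) for Agrp and chr4:80211961-80212110 (plus strand) for Npy. Capitals mark matches to the motifs named below.
Pomc: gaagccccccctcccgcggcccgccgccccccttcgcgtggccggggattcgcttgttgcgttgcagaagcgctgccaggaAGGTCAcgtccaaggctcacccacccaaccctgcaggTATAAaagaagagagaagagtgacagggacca
Cartpt: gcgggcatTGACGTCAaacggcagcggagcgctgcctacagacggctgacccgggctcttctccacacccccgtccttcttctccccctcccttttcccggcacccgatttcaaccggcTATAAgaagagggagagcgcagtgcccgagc
Agrp: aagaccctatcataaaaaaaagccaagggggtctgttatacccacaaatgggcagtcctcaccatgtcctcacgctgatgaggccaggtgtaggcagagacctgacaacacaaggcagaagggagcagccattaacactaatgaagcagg
Npy: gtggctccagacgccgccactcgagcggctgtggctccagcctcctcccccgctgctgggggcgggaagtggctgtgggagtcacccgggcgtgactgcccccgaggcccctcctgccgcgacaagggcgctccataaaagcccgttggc

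Motifs were searched in the 300 bases from 250 before to 50 after the start of all 9 genes, which all matched a RefSeq entry, and of 33469 promoters. The TATA core TATAA, on the gene's strand, began 32 bases before the start of Pomc and 31 bases before that of Cartpt, at positions -32 and -31, and 18.4% of all promoters hold it. The full cAMP response element TGACGTCA, which reads alike on both strands and is found in 1.83% of promoters, stood at position -142 of Cartpt. Its half-site TGACG, searched on both strands, is contained in that element and was also found in Npy1r, and 21.2% of promoters hold it. The estrogen receptor half-site AGGTCA, on either strand, was found in Pomc alone among the 9 genes, at position -69, against 16.2% of promoters. The STAT motif TTCNNNGAA (8.87% of promoters), the FoxO motif TGTTTAC (3.78%) and the E-box CACGTG (6.42%), each searched on both strands, were in 0 of the 9 windows. A match of letters is a description and does not show binding. The receptor genes Npy1r and Npy5r are neighbours on chromosome 16, on opposite strands and with 0 other annotated genes starting between them.

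Levels are FPKM, which here came out as fragment numbers divided by the library's scaling total and by a transcript length shortened by 257 nt before puberty and by a few nt less at puberty. Comparisons of levels between genes rest on this shortening, which weighs most on short transcripts. Where a gene has 1 transcript most low FPKM values were whole multiples, within 0.03, of a step, the value of 1 fragment (94.1% of those up to 10 fragments before puberty and 94.8% at puberty), which gave the number of fragments behind each value. The totals to which the values were scaled came out at 20767974 fragments before puberty and 16211244 at puberty, a ratio of 1.28, and depend on the shortening, whereas the fragment numbers rest on the steps. Agrp (648 nt) and Npy (536 nt) are shorter than the transcripts over 800 nt used to find the steps. The 12 member values under 200 fragments lay within 0.184 of a whole number and the 6 others within 0.367. The 95% intervals below are exact Poisson intervals of these fragments, or exact intervals of a ratio of fragments, and cover counting error only. Without molecular identifiers, fragments copied by PCR are not independent, and the spread between rats is not in these intervals.

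Pomc, the precursor of alpha-MSH, was the member with the largest ratio between the stages. The difference in FPKM was larger for Cartpt (32.6 against 22.5 for Pomc). Pomc was listed at 45.8 FPKM before puberty (642 fragments, 42.3 to 49.5) and at 68.3 FPKM at puberty (754 fragments, 63.5 to 73.4). The pubertal level was 1.49 times the prepubertal level (1.34 to 1.66). On the scale of log2((pubertal FPKM + 1) / (prepubertal FPKM + 1)), used for all log2 ratios below, this is 0.57, at percentile 98.1 of the 13804 genes with a mean FPKM of at least 1.

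Cartpt, the precursor of the satiety peptide CART, had the highest level of the 9 genes in both libraries. It was listed at 119 FPKM (1445 fragments, 113 to 126) and 152 FPKM (1450 fragments, 144 to 160), a fold of 1.27 (1.18 to 1.37). CART is made in several other hypothalamic nuclei, so its level is not that of arcuate neurons alone. The fragment numbers were nearly the same in both libraries, while the pubertal scaling total was smaller, so the higher pubertal FPKM is a larger share of that total.

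The orexigenic pair was listed lower than Pomc. Agrp, which encodes the antagonist of MC3R and MC4R and is made almost only in the arcuate nucleus, stood at 21.4 FPKM before puberty (174 fragments, 18.3 to 24.8) and 27.2 FPKM at puberty (175 fragments, 23.3 to 31.6). Its fold was 1.27 (1.02 to 1.58). Npy, which is also made outside the arcuate nucleus, stood at 26.2 FPKM (152 fragments, 22.2 to 30.7) and 32.3 FPKM (149 fragments, 27.3 to 37.9), a fold of 1.23 (0.976 to 1.56). Both genes were higher at puberty in FPKM, and the counting interval of the ratio included 1 for Npy. For Agrp it lay above 1 as deposited but included 1 when scaled to reference genes (0.943 to 1.45). The log2 ratios of Cartpt, Agrp and Npy were 0.35, 0.33 and 0.29, at percentiles 93.3, 92.8 and 90.7 of the genes with a mean FPKM of at least 1.

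**Figure D1:**
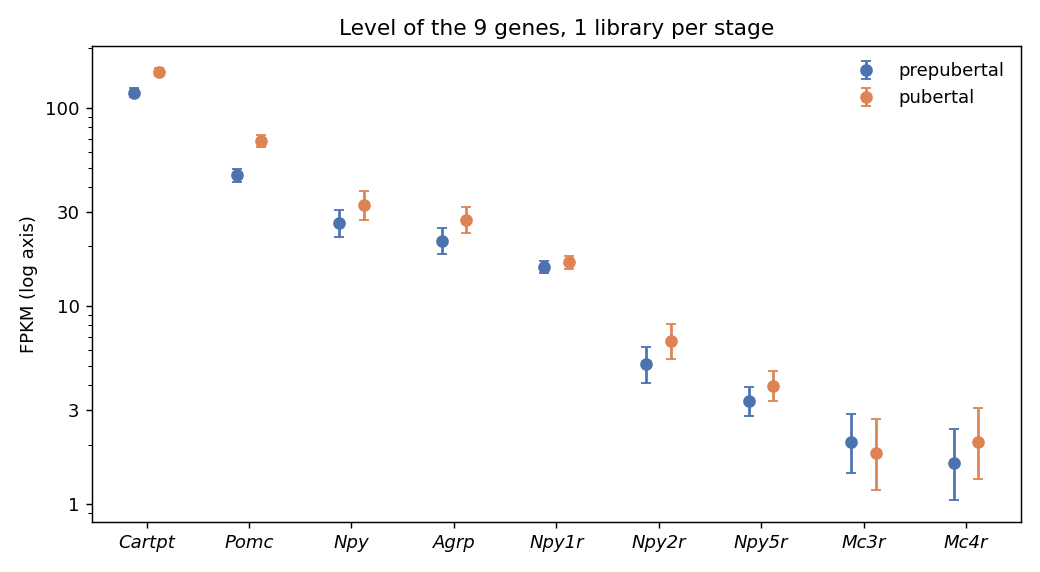
FPKM (log axis) of the 9 genes in the prepubertal and pubertal library, 1 point per library, with exact 95% Poisson intervals of the fragments as bars. The precursors span 21.4 to 152 FPKM and the receptors 1.62 to 16.6 FPKM, and the pubertal point is the higher one for every gene but Mc3r.

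The melanocortin receptors had the lowest levels. Mc3r, found on arcuate neurons and elsewhere in the brain, was listed at 2.06 FPKM (36 fragments, 1.44 to 2.85) and 1.82 FPKM (25 fragments, 1.18 to 2.69), and was the 1 member with a lower value at puberty. Its fold of 0.884 had an interval of 0.509 to 1.51. Mc4r, the receptor through which alpha-MSH restrains feeding in the paraventricular nucleus, was listed at 1.62 FPKM (25 fragments, 1.05 to 2.39) and 2.06 FPKM (25 fragments, 1.33 to 3.04), a fold of 1.27 (0.701 to 2.31). With so few fragments, a difference smaller than these intervals was not detectable at this depth for either receptor.

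Npy1r, a receptor that carries the feeding effect of NPY, had the highest level of the receptors. It was listed at 15.7 FPKM (771 fragments, 14.6 to 16.9) and 16.6 FPKM (637 fragments, 15.3 to 17.9), a fold of 1.06 (0.949 to 1.17). Npy2r, the presynaptic receptor by which NPY neurons restrain their own release, went from 5.09 FPKM (94 fragments, 4.11 to 6.23) to 6.69 FPKM (97 fragments, 5.42 to 8.16), a fold of 1.31 (0.979 to 1.76). Npy5r, another receptor for NPY-driven feeding, went from 3.31 FPKM (148 fragments, 2.80 to 3.88) to 3.97 FPKM (139 fragments, 3.34 to 4.69), a fold of 1.2 (0.945 to 1.52). The log2 ratios of Npy1r, Npy2r and Npy5r were 0.07, 0.34 and 0.21, and those of Mc3r and Mc4r -0.12 and 0.22. The interval of the ratio includes 1 for all 5 receptors.

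The order of the levels was Cartpt, Pomc, Npy, Agrp, Npy1r, Npy2r and Npy5r in both libraries, followed by Mc3r and Mc4r before puberty and by Mc4r and Mc3r at puberty. Neighbours in this order whose counting intervals overlap were Npy and Agrp as well as Mc3r and Mc4r in both libraries, and Npy5r and Mc3r before puberty. With fragments divided by the full length instead, Npy1r would stand above Npy and Agrp before puberty (14.2 against 13.7 and 12.9) but below both at puberty (15.0 against 17.1 and 16.7).

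Of the list, 8 of the 9 genes were higher at puberty, with a median log2 ratio of 0.29. The median over all 22777 genes was 0.00, and 38.9% of these were higher at puberty (49.0% of the genes with a mean FPKM of at least 1). At least 1.5-fold in FPKM + 1 apart were 0 of the 9 members, against 3.29% of all genes in either direction. At 1.2-fold, a threshold added after the values were seen, 5 members were higher (Pomc, Cartpt, Agrp, Npy and Npy2r) and 0 lower, against 8.63% and 11.3% of all genes. Of all genes, 4725 were equal in both libraries, and the share among genes with a mean FPKM of at least 1 is not given. Npy, at a log2 ratio of 0.29, was the closest of these 5 to the threshold and would be lost at a slightly higher one. Scaled to reference genes, Cartpt, Agrp, Npy and Npy2r fell below 1.2-fold (log2 ratios of 0.23, 0.22, 0.18 and 0.23) and Pomc (0.45) did not. The same held when scaled to hypothalamic peptides or hypothalamic transcription factors. With equal Actb, Mc4r, Npy1r and Npy5r passed it as well. The 4 precursors had a median of 0.34 and the 5 receptors of 0.21. The interval of the stage ratio lay above 1 for 3 members (Pomc, Cartpt and Agrp) and included 1 for the other 6, as deposited. Over the 11672 genes with 1 transcript of at least 500 nt and at least 50 fragments in all, limits set after the values were seen, it lay above 1 for 19.5% and below 1 for 23.7%. It lay above 1 for 2 members when scaled to reference genes (Pomc and Cartpt, against 8.32% of those genes), for 5 with equal medians (26.8%) and for 7 with equal Actb, where 71.4% of those genes did so as well. With the scalings added after the values were seen, it lay above 1 for 2 members when scaled to hypothalamic peptides (Pomc and Cartpt, against 3.86%) and for Pomc alone when scaled to hypothalamic transcription factors (2.72%). In the last case that of Npy1r lay below 1 (0.797 to 0.986), as did 59.2% of those genes. The 10 transcription factors behind this scaling rest on few fragments, from 9 and 5 for the lowest to 310 and 309 for the highest. The counting error of the scaling factors is not in these intervals.

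**Figure D2:**
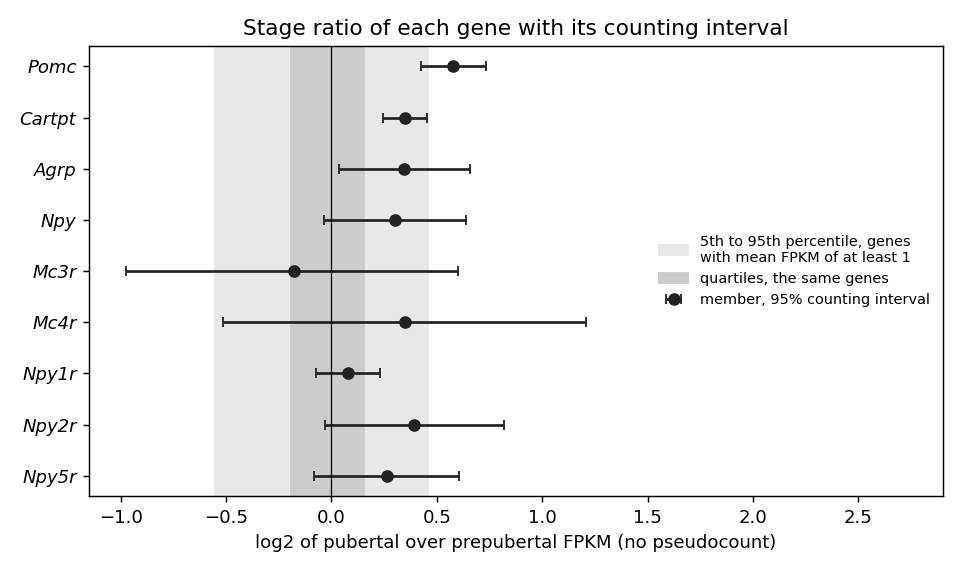
Stage ratio of each gene on the log2 scale with no pseudocount (points, 1 library per stage) and its exact 95% counting interval (bars). Grey bands give the quartiles and the 5th to 95th percentile of genes with a mean FPKM of at least 1. As deposited, Pomc, Cartpt and Agrp have intervals to the right of 0.

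The size of these ratios depended on how the libraries were scaled, and for Npy1r and Mc3r so did the sign. The factor of 1.28 between the scaling totals is 0.36 on the log2 scale, and the fragments themselves were lower at puberty for Npy, Mc3r, Npy1r and Npy5r. Scaling to equal medians over genes above 0 in both libraries (a factor of 1.04 on the pubertal library) left 8 genes higher and put Pomc past 1.5-fold. Scaling to equal Actb (a factor of 1.32) made all 9 higher, 5 of them past 1.5-fold, but it also moved the median log2 ratio of all genes to 0.19. Scaling to the median of 10 reference genes (a factor of 0.920) left 7 higher, with Npy1r at -0.04. Pomc had a log2 ratio of 0.32 to 0.97 over all settings tried, and it was the highest of the 9 in each setting plotted. A rescaling multiplies every gene of the pubertal library by the same factor. It could therefore hardly change the order of the genes, and that order is no separate result.

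**Figure D3:**
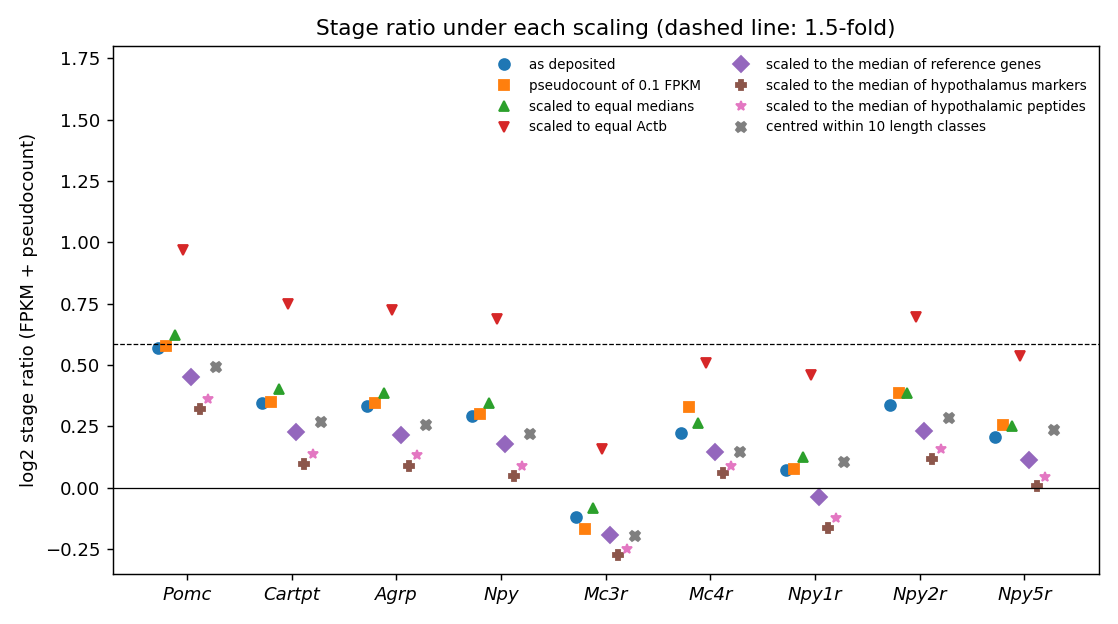
Log2 stage ratio of each gene as deposited and under 7 other settings (1 symbol per setting, dashed line at 1.5-fold). Scaling to Actb gives the highest values and scaling to 10 hypothalamic transcription factors the lowest, and Pomc lies between 0.32 and 0.97.

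Ratios between genes within a library do not depend on the scaling of the libraries, but their size rests on the shortening of the lengths. With fragments divided by the full length, Pomc stood at 33.2 before puberty against 13.7 for Npy and 12.9 for Agrp. At puberty these were 49.9 against 17.1 and 16.7. The counting intervals do not cover this. Pomc was 0.384 times Cartpt before puberty (0.349 to 0.421) and 0.450 times at puberty (0.411 to 0.491), so this ratio was 1.17 times higher at puberty (exact conditional interval 1.03 to 1.33, counting error only). Pomc was 2.14 times Agrp before puberty (1.81 to 2.54) and 2.51 times at puberty (2.13 to 2.98), a change of 1.17 times (0.917 to 1.49). Against Npy, Pomc stood at 1.749 (1.46 to 2.102) and 2.12 (1.77 to 2.54). Pomc thus had a higher share at puberty against each of the other precursors, and the interval of the change lies above 1 against Cartpt alone. The direction is no separate result. Pomc was already the member with the largest stage ratio, so its ratio to every other precursor had to rise. Several pairs of genes were read, and the interval against Cartpt allows neither for their number nor for the choice of the member with the largest stage ratio.

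The other precursors kept nearly the same proportions. Cartpt was 5.57 and 5.58 times Agrp, with an interval of the change of 0.794 to 1.25, and Npy was 1.22 and 1.19 times Agrp, a change of 0.970 times (0.708 to 1.34). Among the receptors, Npy1r was 4.76 and 4.18 times Npy5r (change 0.880, 0.677 to 1.14) and 3.09 and 2.48 times Npy2r (change 0.804, 0.585 to 1.10). Mc4r was 0.787 and 1.13 times Mc3r (change 1.44, 0.634 to 3.27). These 3 intervals include 1.

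**Figure D4:**
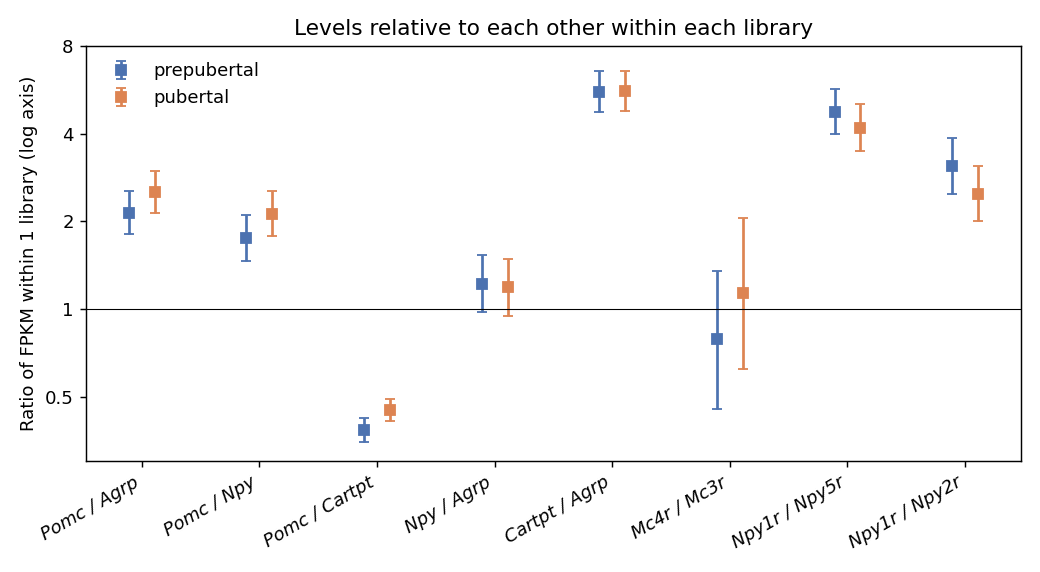
Ratio of the FPKM of 2 genes within 1 library (log axis) before and at puberty, with exact 95% counting intervals as bars. Pomc over Cartpt goes from 0.384 to 0.450, while Cartpt over Agrp is 5.57 and 5.58.

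Several measures moved with the stage beside these genes. Shorter transcripts had higher ratios: among genes with a mean FPKM of at least 1, the median log2 ratio was 0.07 in the shortest of 10 length classes (168 to 759 nt) and -0.13 in the longest (4457 to 17543 nt). The precursor transcripts are short, from 536 nt for Npy to 932 nt for Pomc. Centred on the median of their own length class, the log2 ratios were 0.49 for Pomc, 0.27 for Cartpt, 0.26 for Agrp and 0.22 for Npy.

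Pomc is also a major gene of the pituitary, so 11 pituitary markers were read in full. Of these, 7 were higher and 4 lower at puberty, and their summed level was 33.1 FPKM before and 45.3 FPKM at puberty. Prl (prolactin) was listed at 0 before puberty and at 3.40 FPKM at puberty (41 fragments). Gh1 (growth hormone) went from 0.872 to 4.09 FPKM (10 and 37 fragments), and Fshb, the beta chain of follicle-stimulating hormone, from 0 to 0.396 FPKM (0 and 9 fragments). Cga, the common alpha chain of the pituitary glycoprotein hormones, stood at 24.6 and 29.97 FPKM and Tshb, the beta chain of thyrotropin, at 4.68 and 5.28 FPKM.

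The other pituitary markers were low. Lhb was listed at 1.44 and 1.29 FPKM, Pitx1 at 0.0724 and 0.123, Pou1f1 at 0.155 and 0.0565 and Gnrhr at 0.0203 and 0.0260 FPKM. Tbx19, the transcription factor of the pituitary lineages that make Pomc, was listed at 0.653 and 0.592 FPKM (31 and 22 fragments), and Pax7, which marks melanotrophs, at 0.537 and 0.0489 FPKM (14 fragments and 1 fragment). The counting interval of the ratio lay above 1 for 3 of the 11 markers (Prl, Gh1 and Fshb), below 1 for Pax7 and included 1 for the other 7. The part of pituitary RNA in the Pomc values was not tested.

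The libraries also differed in genes listed as markers of neighbouring brain regions. Of the 14 telencephalon and thalamus markers, 13 were matched, 3 were higher and 10 lower at puberty, with a median log2 ratio of -0.33 and summed levels of 403 and 338 FPKM. At least 1.5-fold lower were 3 of them (Slc17a7, Neurod6 and Tcf7l2, named after their values were seen), and 0 were as much higher. The most abundant were Slc17a6 (206 and 188 FPKM), Prkcd (108 and 85.3), Ppp1r1b (26.3 and 29.1) and Slc17a7 (26.2 and 12.8). Slc17a6 alone thus held 206 of the 403 and 188 of the 338 FPKM. Whether the listed markers, Slc17a6 among them, are confined to those regions was not tested. The 10 hypothalamic transcription factors of a fixed list were all above 0 in both libraries, as were these 13 markers, so detection alone does not check the tissue label. Of the 10 factors, 7 were higher and 3 lower at puberty (median 0.11, summed 11.5 and 12.8 FPKM), led by Nkx2-1 (2.67 and 2.47 FPKM), Sim1 (2.01 and 2.57), Six3 (1.804 and 2.294) and Fezf1 (1.63 and 1.83 FPKM). Scaled to their median (a factor of 0.839 on the pubertal library, added after the values were seen), the log2 ratios were 0.32 for Pomc, 0.10 for Cartpt, 0.09 for Agrp and 0.05 for Npy. The part of the dissection in the stage differences was not tested.

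The other genes of the melanocortin pathway were read from a fixed list of 14, of which 13 were matched by name. At puberty 5 were higher and 8 lower, with a median log2 ratio of -0.05, and 0 were 1.5-fold apart. Of the 5, Asip, Mc2r and Mc5r rested on 0 to 2 fragments in each library, as did Mc1r among the 8. Among the enzymes that process the precursors, the convertase Pcsk2 went from 129 to 105 FPKM and the carboxypeptidase Cpe from 854 to 610 FPKM, log2 ratios of -0.29 and -0.49. The counting intervals of their ratios lay below 1 (0.781 to 0.848 and 0.701 to 0.728), as did those of 23.7% of the genes of 1 transcript counted above. The amidating enzyme Pam stood at 128 and 126 FPKM, and Scg5, the chaperone of the convertase, at 507 and 562 FPKM. The interval of the ratio of Scg5 lay above 1 (1.08 to 1.14). Prcp, which inactivates alpha-MSH, stood at 13.2 and 12.6 FPKM.

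The accessory genes of the melanocortin receptors were well above the receptors in level. Mrap2, the accessory protein of MC4R, was listed at 34.5 and 37.3 FPKM. Atrn (attractin) stood at 92.4 and 88.9 FPKM, Mgrn1 (mahogunin) at 55.2 and 46.6 FPKM, and Sdc3 (syndecan-3), which aids AgRP at the receptor, at 27.4 and 24.3 FPKM. The counting interval of the ratio lay below 1 for Atrn, Mgrn1 and Sdc3 and included 1 for Mrap2. Asip, the agouti relative of AgRP, and the receptors Mc1r, Mc2r and Mc5r rested on 0 to 2 fragments in each library, so no fold is given.

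Relatives of NPY rested on few fragments. Of a fixed list of 6 names, 4 were matched. Pyy (peptide YY) rested on 1 and 0 fragments, Ppy (pancreatic polypeptide) was listed at 0 in both libraries, and Npy4r, the receptor of pancreatic polypeptide, was listed at 0.332 and 0.492 FPKM (6 and 7 fragments). Dpp4, a peptidase that trims NPY, was listed at 1.05 FPKM (43 fragments) and 0.311 FPKM (10 fragments), a fold of 0.297 (0.133 to 0.600), and was the 1 gene of this list past 1.5-fold.

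**Figure D5:**
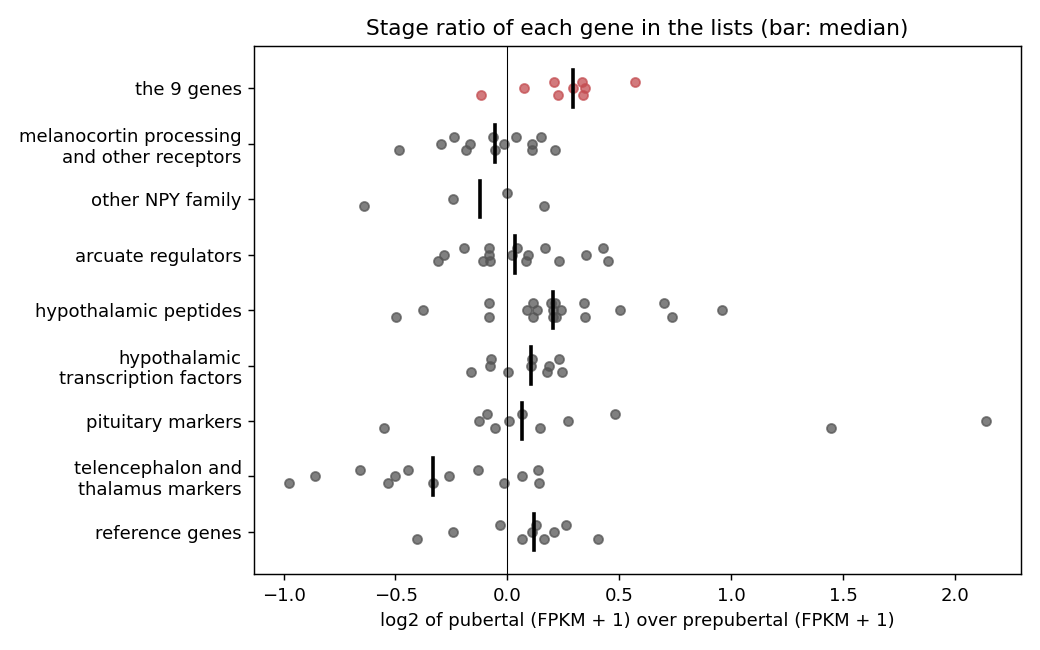
Log2 stage ratio of each gene (points) in the 9 genes and in 8 other fixed lists, with the median of each list as a bar, from 1 library per stage. The 9 genes have a median of 0.29, the other hypothalamic peptides 0.20, the melanocortin pathway -0.05 and the telencephalon and thalamus markers -0.33.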

How the data were processed

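Hypothalamic RNA was depleted of ribosomal RNA and sequenced as strand-specific paired-end libraries. Reads were mapped by the authors with TopHat and assembled with Scripture and Cufflinks 2.1.1, and the authors deposited FPKM per transcript from Cuffdiff 2.1.1 in 1 column per stage. The labels name the assembly Rnor_5.0, whereas the methods link the annotation of a later one. FPKM of the mRNA table were summed per gene. The deposited comparison table also holds log2 ratios, p-values and q-values of the authors, which were not used, and transcript lengths in nt, which were. The lncRNA files were not used here.

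The value of 1 fragment was modelled as K / (length - c) and fitted per library to genes of 1 transcript over 800 nt with up to 5 fragments. Of 1689 prepubertal and 1835 pubertal values up to 10 fragments, 94.1% and 94.8% came out whole within 0.03. The subtracted length c was 257 and 251 nt.

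Log2 ratios used a pseudocount of 1 FPKM and all listed genes. With 1 library per stage no test was run. The members and gene lists were chosen with earlier results of these data known. Named were all members, all matched genes of the melanocortin, NPY and pituitary lists, at most the 4 most abundant of any other list, and the nearest peptide gene of each precursor. Neurod6, Tcf7l2 and Col1a1 were named in addition, after their values were seen. Promoter sequences are from RefSeq (GRCr8). Protein sequences were not used here, and 2 marker genes of the original lists are not reported here. Alternatives were another pseudocount, filter, fold threshold, source table or transcript choice and 3 rescalings, and, added after the values were seen, 2 more rescalings, centring by length and a fold of 1.2. Scripts ran in Python 3.11.15 (scipy 1.17.1, pandas 2.3.3, numpy 2.4.6, matplotlib 3.10.9).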

Additional observations from a re-analysis of the deposited data

How the results depend on the processing

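No paired analysis was possible because each stage has 1 library. For the same reason no replicate could be left out. As deposited, 0 members and 3.29% of all genes (326 higher, 423 lower) were at least 1.5-fold apart. The number of members became 1 with equal medians, 5 with equal Actb and 5 at 1.2-fold, and stayed at 0 under the other settings. The share of all genes became 12.7% with a pseudocount of 0.1, 11.4% with equal Actb (2418 higher, 171 lower), 5.95% when scaled to hypothalamic transcription factors (149 and 1207), 5.04% when scaled to hypothalamic peptides (166 and 982), 19.9% at 1.2-fold and 0.681% at 2-fold. The shift under each rescaling follows from its factor.

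The ratios of Pomc, Cartpt, Agrp, Npy, Mc4r, Npy2r and Npy5r kept their sign in all settings tried. Npy1r was below 0 under 3 rescalings (lowest -0.16), and Mc3r was above 0 with equal Actb (0.16). Of 90 member values under an alternative, 27 could not change (source table, transcript choice and filter). Of the others, 12 shifted, with the pseudocount, by more than their counting interval, which has no pseudocount. With no pseudocount on either side, Npy5r with equal Actb would be added (a fold of 1.59, against 0.945 to 1.52 as deposited). The number of fragments limits Mc3r and Mc4r most.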

Other observations

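The other hypothalamic peptide genes were also higher at puberty for the most part. Of 20 genes in a fixed list, 16 were higher and 4 lower, 3 of them at least 1.5-fold higher, with a median log2 ratio of 0.20. The most abundant were Pmch, the precursor of melanin-concentrating hormone (1675 and 2723 FPKM), Oxt (411 and 686), Cck (257 and 242) and Avp (254 and 240 FPKM). The peptide genes nearest to the precursors in level over the 2 libraries were Trh for Pomc (53.4 and 62.0 FPKM, distance 0.26 on the log2 scale), Sst for Cartpt (108 and 124, 0.32), Tac3 for Agrp (20.7 and 24.3, 0.16) and Nts for Npy (35.5 and 37.8, 0.48).

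Of 16 regulators and transmitter genes of arcuate feeding neurons, 9 were higher and 7 lower, with a median log2 ratio of 0.03. The most abundant were the GABA synthesis genes Gad2 (106 and 108 FPKM) and Gad1 (85.4 and 74.6), the vesicular GABA transporter Slc32a1 (33.6 and 27.4) and Stat3, through which leptin acts (21.6 and 20.3 FPKM). Of 12 glia, vessel and blood markers matched from a list of 13, 6 were higher and 6 lower, with a median of 0.03. At least 1.5-fold higher were 2 of them, and 1 was lower, Col1a1 (9.57 and 2.93 FPKM), a collagen gene named after its values were seen. The most abundant were Mbp (4633 and 5335 FPKM), Hbb (2130 and 5898), Hba1 (3100 and 4817) and Gfap (257 and 288 FPKM). Of 10 reference genes, 7 were higher and 3 lower, with a median of 0.12, led by Ppia (2708 and 3124 FPKM), Gapdh (1839 and 2012), Actb (763 and 576) and Ywhaz (681 and 575 FPKM).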
